A study of Mus musculus with 4 samples.

Results

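The genes described here are the protein-folding and stress-response genes of the endoplasmic reticulum (ER), a set of 50 gene symbols that covers chaperones, disulfide enzymes, the ATF6/XBP1 and PERK/ATF4 arms of the unfolded protein response, and ER-associated degradation. They were chosen as the rows of the authors' deposited table whose gene symbol equals one of these 50 names, and 41 were found among the 7000 genes listed. Liver total RNA of FVB/N wild-type male mice was sequenced after removal of ribosomal RNA, from 2 mice on a diet supplemented with 0 ppm Se (0 Se) and 2 mice on a diet supplemented with 0.1 ppm Se as sodium selenite (0.1 Se), fed from weaning for 6 weeks. The groups otherwise share strain, sex, tissue and basal diet, which is Se-deficient. For each gene the table gives the length of its mRNA and the log2 of its mean CPM (read counts scaled to a common library total) over the 4 libraries, beside the authors' own comparison of the diets, whose columns were not used. Its remaining values hold no figure for a single mouse or a single diet, so every level below is the authors' mean over both diets, the effect of Se on these genes was not analysed here, and no spread between mice can be given. The order of genes and the ratios between them are likewise those of pooled means and need not hold within either diet. The total counts of the libraries are not known from these values, so no counting error is attached to a level either.

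The ER folds and oxidises secreted and membrane proteins, and hepatocytes, which make most plasma proteins, carry a large load of both. When unfolded proteins accumulate, the sensors IRE1 (gene Ern1), ATF6 and PERK are activated: IRE1 splices the mRNA of the transcription factor XBP1, ATF6 is cut to release a transcription factor, and PERK phosphorylates eIF2alpha, which slows translation and favours that of ATF4. ATF6 and XBP1 act on chaperone and degradation genes through the ER stress element (ERSE), a promoter element with a CCAAT and a CCACG part, and ATF4 acts on genes such as Ddit3, Trib3 and Chac1. ER-associated degradation moves misfolded proteins out to the proteasome. Several selenoproteins reside in the ER, and some of them take part in folding or in degradation.

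The promoter elements are shown first because they belong to the genes themselves, whatever their level. RefSeq promoter windows of 300 bases (250 before and 50 after the annotated start, build GRCm38.p6) were available for 42 of the 50 genes. An ERSE, searched as CCAAT, 9 free bases and CCACG on both strands, was found in 10 of the 42, or 23.8%, against 37 of 27025 genes with a window (0.137%). Among the genes listed in the table it was found in 10 of 37 ER genes (27.0%) and in 16 of all 5613 genes with a window (0.285%). ATF6 and XBP1 are known to act on chaperone and degradation genes through this element, and the set was chosen to hold such genes. The higher share in the set is therefore no independent result. The 10 genes are the chaperone genes Hspa5, Hsp90b1, Calr, Canx and Dnajc3, the disulfide genes Pdia6, Ero1lb and Creld2, and the degradation genes Derl3 and Syvn1. The stretches below were chosen to show the most abundant chaperones beside a less abundant member of the disulfide arm and both degradation genes. Each is written 5′ to 3′ on the strand that reads CCAAT first, with the searched letters in capitals and 5 flanking bases on either side.
Hspa5: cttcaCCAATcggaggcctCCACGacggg
Hsp90b1, proximal: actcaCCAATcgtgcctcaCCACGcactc
Hsp90b1, distal: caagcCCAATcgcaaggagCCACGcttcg
Calr: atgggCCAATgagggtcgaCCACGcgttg
Creld2: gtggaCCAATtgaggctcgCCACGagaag
Derl3: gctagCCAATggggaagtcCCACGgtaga
Syvn1: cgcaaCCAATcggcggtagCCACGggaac

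On GRCm38.p6 the Hspa5 stretch is chr2:34772020-34772048 (plus strand), and its centre lies 56 bases before the start site. The proximal Hsp90b1 stretch is chr10:86705528-86705556 (plus) and the distal one chr10:86705633-86705661 (minus), with centres 98 and 203 bases before the start. The Calr stretch is chr8:84847070-84847098 (plus), that of Creld2 is chr15:88819515-88819543 (minus), that of Derl3 is chr10:75893237-75893265 (minus) and that of Syvn1 is chr19:6046527-6046555 (plus). All of them lie upstream of the transcript. Over the 10 genes there were 11 elements, with centres from 35 (Syvn1) to 203 bases before the start, 6 on the strand of the gene and 5 on the opposite one. Hsp90b1 was the gene with more than 1 element. A match says only that these letters stand in the window, and the binding of a factor was not measured.

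**Figure D1:**
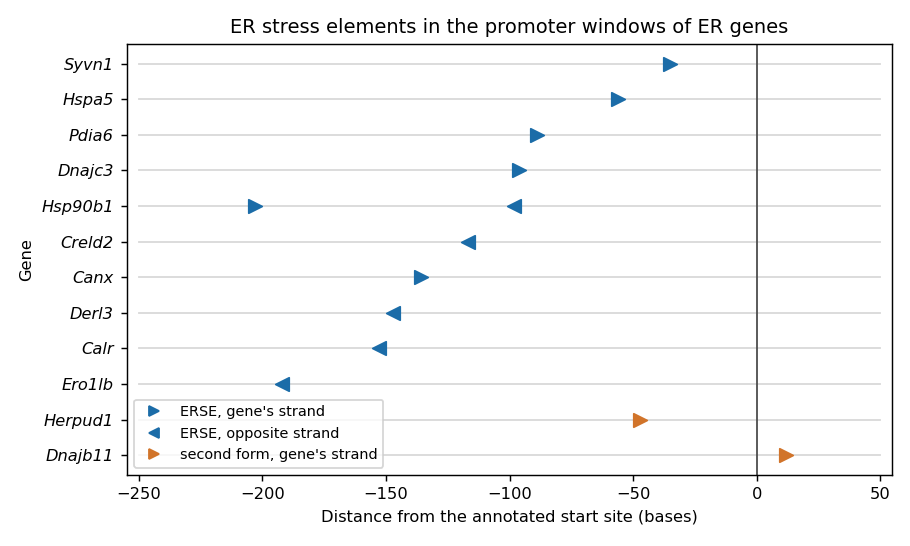
Position of each ER stress element in the promoter windows of 12 ER genes, as the distance of its centre from the annotated start site in bases. Blue triangles are the 11 ERSE, orange triangles the second form with a 1-base gap, and the direction of a triangle gives the strand. The blue elements lie between 35 and 203 bases before the start.

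The gap between the CCAAT and CCACG parts was examined next. A gap of 9 belongs to the element as defined for the search, so this scan is a description and no independent support for it. With each of the other gaps from 5 to 13 free bases, at most 1 of the 42 genes had a match, which was P4hb with a gap of 6, and the share of all genes with a match ran from 0.0222% to 0.0666%. CCACG alone was present in 34 of the 42 windows (81.0%), in 35.5% of all genes and in 51.6% of the listed genes. CCAAT alone was present in 31 (73.8%), against 41.1% of all genes and 43.9% of the listed genes. A second form of the element, ATTGG, 1 free base and CCACG, was found in Herpud1 and Dnajb11, against 0.0444% of all genes and 0.107% of the listed genes.
Herpud1: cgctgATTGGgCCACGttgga
Dnajb11: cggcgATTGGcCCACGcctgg

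The Herpud1 stretch is chr8:94386372-94386392, with its centre 47 bases before the start, and the Dnajb11 stretch is chr16:22857847-22857867, just after the annotated start. The XBP1 element TGACGTGG was present in Txndc5 and Txndc11 (0.714% of all genes and 0.891% of the listed genes). The letters TGATGNAA, the core of the element read by ATF4 with a C/EBP partner, were found in Chac1, Trib3, Herpud1 and Txndc5, which is 4 of 42 (9.52%) against 4.51% of all genes and 2.90% of the listed genes. TGACGTCA, the cyclic AMP element, was found in Ppp1r15a (2.03% of all genes and 3.46% of the listed genes). None of the 5 ATF6/XBP1 genes and none of the 5 PERK/ATF4 genes with a window had an exact match to the ERSE. Sites with a changed letter were not searched for, and Atf6 had no window.

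**Figure D2:**
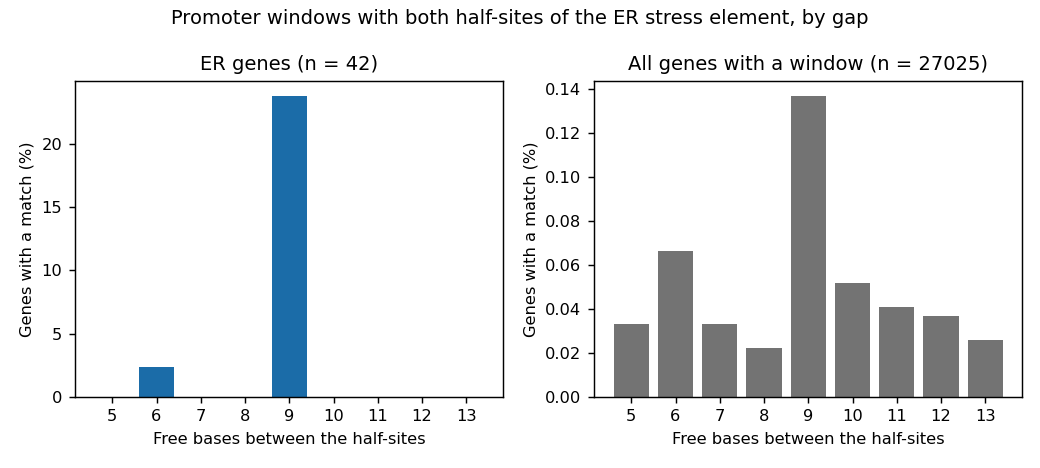
Share of genes (%) whose promoter window holds CCAAT and CCACG separated by 5 to 13 free bases, for the 42 ER genes (left) and for all 27025 genes with a window (right); the vertical scales differ. At a gap of 9 the share was 23.8% among the ER genes and 0.137% among all genes.

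The mRNA levels were compared between genes per kilobase of listed mRNA (CPM per kilobase), since a longer mRNA yields more fragments. The median of the 41 listed ER genes was 41.5 CPM per kilobase, which is 6.70 times the median of all 7000 listed genes (6.19 CPM per kilobase). Of the 41, 35 lay above that median (85.4%) and 17 lay in the highest 10% of listed genes (41.5%). The levels ran over a 1952-fold range, from Hspa5 to Bhlha15. Together the 41 genes held 11816 CPM, or 1.82% of the summed CPM of the listed genes. Hspa5, P4hb, Calr, Hsp90b1 and Canx accounted for 53.1% of this sum. These are counts and medians without a test. The listed genes stand in the p-value order of the authors' diet comparison and lack genes that hepatocytes express, such as Alb and Ttr. The ratios, shares and ranks given here and below hold among listed genes and need not hold among all genes expressed in liver.

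**Figure D3:**
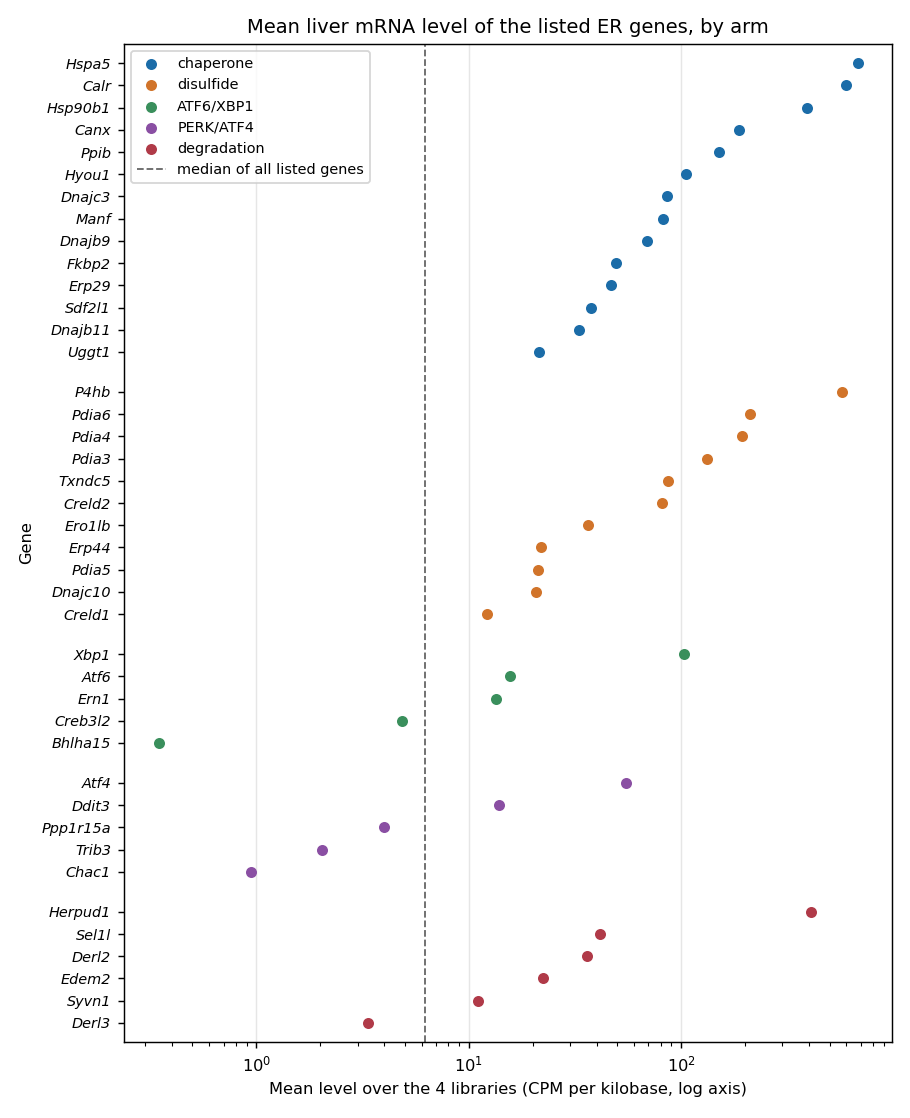
Mean level over the 4 libraries (CPM per kilobase of listed mRNA, log axis) of each of the 41 listed ER genes, grouped by arm and ordered by level within it; the dashed line is the median of all listed genes, 6.19. Each point is the authors' mean and has no error bar. All chaperone and disulfide genes lie to the right of the line, and 3 of the 5 PERK/ATF4 genes lie to its left.

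Chaperone mRNAs had the highest median and the highest sum of the 5 arms. Hspa5, which encodes BiP, the Hsp70 chaperone of the ER lumen, had a mean of 1771 CPM, or 677 CPM per kilobase, and stood 64th of the 7000 listed genes. In the gene models of NCBIM37 (the assembly of mm9) it spans bases 34627490 to 34632051 of chromosome 2, and its longest mRNA has 8 exons. Calr, the lectin chaperone calreticulin, followed at 596 CPM per kilobase. Hsp90b1, the Hsp90 of the ER, was at 390 CPM per kilobase, and Canx, the membrane-bound relative of calreticulin, at 188. Calr was thus 3.17 times the level of Canx per kilobase. These 4 genes, which are those with the highest chaperone levels, all carry an ERSE.

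The helpers of BiP were lower than BiP itself. Hyou1, an Hsp110-type nucleotide exchange factor, was at 105 CPM per kilobase, so that Hspa5 exceeded it 6.46 times. Of the J-domain cochaperones, Dnajc3 (p58IPK) was at 85.7, Dnajb9 (ERdj4) at 69.0 and Dnajb11 (ERdj3) at 33.2 CPM per kilobase. Sdf2l1, which binds ERdj3, was at 37.7, close to Dnajb11. Manf, a secreted stress-induced protein, was at 82.3 CPM per kilobase. The order of neighbours such as Dnajc3 and Manf cannot be set against a spread between mice.

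The remaining chaperone genes include 2 prolyl isomerases. Ppib (cyclophilin B) was at 151 CPM per kilobase and Fkbp2 at 49.6. Erp29, a luminal protein with a thioredoxin-like fold, was at 46.7, and Uggt1, which re-glucosylates unfolded glycoproteins for another round with calreticulin and calnexin, was lowest at 21.5 CPM per kilobase. Even Uggt1 lay above 78.3% of listed genes, and all 14 listed chaperone genes lay above the median of listed genes. The arm had a median of 84.0 CPM per kilobase. Hspa13 and Sil1 were not listed.

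Disulfide enzymes came next, with a median of 81.5 CPM per kilobase over 11 listed genes, all above the median of listed genes. P4hb, protein disulfide isomerase itself and a subunit of prolyl 4-hydroxylase, led with 1459 CPM or 575 CPM per kilobase, and lies on chromosome 11 of NCBIM37 from 120421612 to 120434567 (11 exons in its longest mRNA). Pdia6 was at 212, Pdia4 at 194 and Pdia3, which works with the lectin chaperones, at 132 CPM per kilobase. P4hb was 2.71 times the level of Pdia6. Pdia5 was much lower, at 21.2 CPM per kilobase.

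Among the other thioredoxin-fold proteins, Txndc5 was at 87.2 CPM per kilobase, Erp44, which retains Ero1 oxidases and secretory cargo, at 21.9, and Dnajc10, a reductase with a J domain, at 20.7. Ero1lb, the oxidase that re-oxidises PDI, was at 36.6 CPM per kilobase, and P4hb exceeded it 15.7 times. Its paralog Ero1l was not listed, nor was Txndc11. Creld2, a stress-induced ER protein, was at 81.5 CPM per kilobase, and its paralog Creld1 at 12.2, the lowest of the arm. Creld2, Pdia6 and Ero1lb carry the ERSE, whereas P4hb, the highest of the arm, has no exact match.

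The degradation arm was uneven. Herpud1, a membrane protein that joins the retrotranslocation complex, was at 765 CPM or 409 CPM per kilobase, above 98.3% of listed genes, and lies on chromosome 8 of NCBIM37 from 96910338 to 96919277 (8 exons). Sel1l, the adaptor of the ubiquitin ligase, was at 41.5 CPM per kilobase, and the ligase itself, Syvn1 (HRD1), at 11.1, so that Sel1l was 3.73 times Syvn1. Derl2, a derlin of the channel, was at 36.1 CPM per kilobase, and Edem2, which trims mannose from glycoproteins marked for disposal, at 22.3. Derl3 was lowest at 4.50 CPM or 3.37 CPM per kilobase, below the median of listed genes. The median of the 6 listed genes was 29.2 CPM per kilobase. Derl1, Edem1, Os9 and Erlec1 were not listed.

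In the ATF6/XBP1 arm, the transcription factor Xbp1 was at 230 CPM or 103 CPM per kilobase, above 93.6% of listed genes. It lies on chromosome 11 of NCBIM37 from 5420662 to 5425896, with 5 exons in its longest mRNA. The 2 sensors were far lower, Atf6 at 15.7 and Ern1 at 13.5 CPM per kilobase, and Xbp1 exceeded Atf6 6.54 times. Counts per gene do not separate spliced from unspliced Xbp1 mRNA, so the level says nothing of IRE1 activity. Creb3l2, an ER-tethered transcription factor like ATF6, was at 4.84 CPM per kilobase. Bhlha15 (MIST1), a transcription factor of secretory cells, was lowest of the set with 1.21 CPM or 0.347 CPM per kilobase. Creb3l3, a liver member of the same family as Creb3l2, was not listed.

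PERK/ATF4 genes had the lowest median of the 5 arms, 4.0 CPM per kilobase, which is 0.646 times that of all listed genes. Atf4 was the exception at 94.5 CPM or 54.8 CPM per kilobase, and lies on chromosome 15 of NCBIM37 from 80085614 to 80087970 (3 exons). Its targets were lower. Ddit3 (CHOP), which promotes cell death under lasting stress, was at 13.9 CPM per kilobase, and Atf4 exceeded it 3.93 times. Ppp1r15a (GADD34), which directs a phosphatase to eIF2alpha, was at 4.0, the pseudokinase gene Trib3 at 2.04, and Chac1, which degrades glutathione, at 0.945 CPM per kilobase. ATF4 is known to be controlled largely in translation, so its mRNA level need not follow its activity. All 5 genes of the arm were listed.

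**Figure D4:**
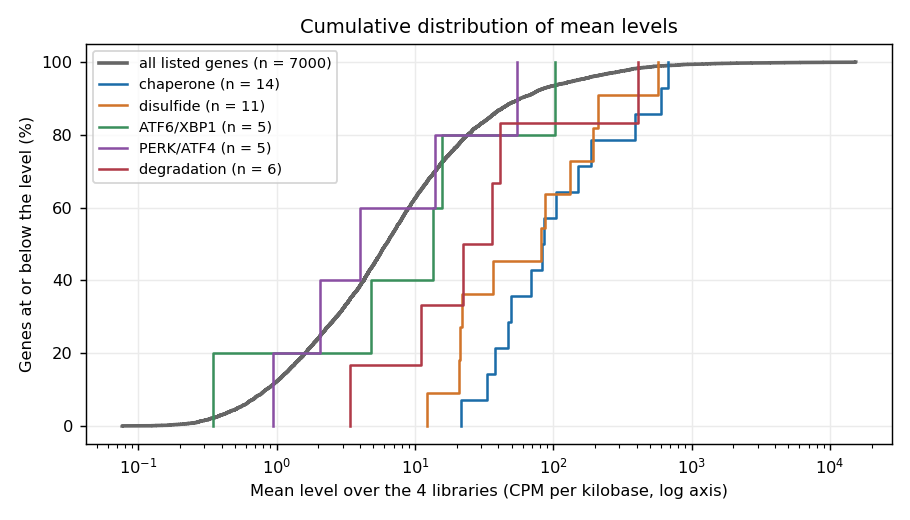
Cumulative share of genes (%) at or below each mean level (CPM per kilobase, log axis) for all 7000 listed genes (grey) and for the 5 arms. The chaperone and disulfide curves run to the right of the grey curve, with medians of 84.0 and 81.5 against 6.19 CPM per kilobase, and the PERK/ATF4 curve runs close to it.

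Levels were then set beside the promoter element. The 10 listed genes with an ERSE had a median of 137 CPM per kilobase, from 3.37 (Derl3) to 677 (Hspa5), and 9 of them lay above the median of listed genes. The 27 listed genes with a window and no ERSE had a median of 33.2, from 0.347 to 575, and 22 lay above that median. The ranges overlapped, and Derl3 had an ERSE at a level below that of most genes without one. The group without an ERSE includes Herpud1 (409 CPM per kilobase) and Dnajb11 (33.2), which hold the second form of the element. It also holds every listed ATF6/XBP1 and PERK/ATF4 gene with a window, from the arms with the lowest medians (13.5 and 4.0 CPM per kilobase). The groups thus differ in arm as well as in the element. This is a description over genes, which are not replicates.

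Other genes of the same pathways were described from 3 further lists. Of 28 other folding genes 18 were listed, with a median of 18.4 CPM per kilobase, and 13 lay above the median of listed genes. Prdx4, an ER peroxiredoxin, was highest at 126, followed by Vkorc1 (vitamin K epoxide reductase) at 113 and the sulfhydryl oxidase gene Qsox1 at 93.8. Of 22 other response genes 14 were listed, with a median of 11.9 CPM per kilobase, and 8 lay above the median of listed genes. Tmbim6 (BAX inhibitor-1) was highest at 475, followed by Bcap31 at 109 and Creb3 at 25.9, and Eif2ak3, the gene of PERK, was at 8.34. Of 22 other degradation genes 12 were listed, with a median of 17.5 CPM per kilobase, and 11 lay above the median of listed genes. Among them, the ER selenoprotein genes Vimp (Sels) and Selk were at 53.5 and 49.6 CPM per kilobase.

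The table runs in the order of the p-values of the authors' comparison, so a gene that is not listed may have come later in that order or may have missed the authors' expression filter. Absence from it is not a low level: Alb, Ttr, Cps1, Ass1 and Hnf4a, which hepatocytes express, were not listed either, and the other 5 of 10 hepatocyte markers ranged from 595 to 14845 CPM per kilobase. Of the Kupffer cell markers 8 of 10 symbols were listed (Emr1 and Adgre1 name 1 gene), from 5.15 to 74.8 CPM per kilobase. Of 12 pancreatic acinar markers Cela1 was listed, at 28.0 CPM per kilobase, and of 8 plasma cell markers 0 were listed. Acinar and plasma cells are rich in Bhlha15, Derl3 and Sdf2l1, and the part of other cells in these levels was not tested. In whole liver, fewer cells of a type and less RNA per cell cannot be told apart.

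The level per kilobase also rests on the listed length. For 34 of the 41 genes an mRNA in the GENCODE vM1 models of NCBIM37 was within 10% of it, and the exceptions were Calr, Canx, Uggt1, P4hb, Creld1, Ern1 and Creb3l2. With the longest GENCODE mRNA instead, Ern1 would be at 7.75 in place of 13.5, Creb3l2 at 2.27 in place of 4.84 and Erp29 at 11.1 in place of 46.7 CPM per kilobase, while the others moved by at most 19.9%. Ern1 is the gene at the median of the ATF6/XBP1 arm, so the median of that arm would likewise be 7.75 in place of 13.5. The authors counted unique alignments, and for 39 of the 41 genes every 50-base window of the longest mRNA was absent from the longest mRNA of every other gene. The lowest share of such windows was 99.4%, in Bhlha15. Only exact matches were counted as shared, whereas the authors allowed 2 mismatches, so a window that differs by up to 2 bases counts as absent here.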

How the data were processed

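Liver RNA of 4 mice, 2 per diet, was sequenced by the authors in 50-base single-end reads. The authors mapped the reads with Bowtie onto a set of RefSeq mRNAs from mm9 that keeps the longest isoform, counting reads with a single best place and no more than 2 mismatches, and used edgeR on genes that exceeded 1 CPM in 3 or more samples. No source used here gives versions. The values used are those the authors deposited: the mRNA length, and a log2 mean CPM for all 4 libraries together, which edgeR computes with a small prior count. The 3 other deposited columns hold the authors' comparison of the diets (fold change, p-value and FDR) and were not used. With no value per mouse, no test, interval or depth could be given, and the diets were not compared.

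CPM was taken as 2 to the power of the deposited log2 value and divided by length in kilobases. All 50 genes are named. Of each further list the 3 highest per kilobase are named, besides genes that carry a result; 1 of these is not reported here. The members and lists were chosen with earlier results of these data known. Promoters came from RefSeq (GRCm38.p6), with Ero1l and Ero1lb matched by synonym; 8 members had no window, namely Atf6, Derl1, Erlec1, Erp29, Hspa13, Hyou1, Manf and Sil1. In 39 of the 42 genes with a window its last bases were found in the gene's GENCODE mRNA on the sense strand, and in 0 on the antisense strand. The motif search and the level calculation were tested on simulated data. Protein C-termini, planned beforehand, were not analysed here. The scripts ran in Python 3.11.15 with pandas 2.3.3, matplotlib 3.10.9 and scipy 1.17.1.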

Additional observations from a re-analysis of the deposited data

How the results depend on the processing

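The median of the listed ER genes was 6.70 times that of all listed genes, and from 5.43 to 7.53 times under 6 alternatives: CPM not divided by length, genes of at least 5 CPM, matching by synonym (which added 0 genes), leaving out 4 genes over 5000 bases, and, chosen after seeing the data, unique windows or GENCODE lengths. The last 2 changed the ER genes alone and kept the median of all listed genes as it was. Matching by synonym and unique windows left the value at 6.70. Without division by length the disulfide arm fell from 13.2 to 8.30 times the median of listed genes. The gene at the median of that arm was then Ero1lb (155 CPM, 4239 bases). Per kilobase it was Creld2 (81.5 CPM per kilobase, 1364 bases). The other 4 arms moved by under 1.5-fold. Among genes of at least 5 CPM the share of ER genes above the median was 94.6%, since 4 low genes drop out. CCACG alone raised the share of ER promoters with a match to 81.0%, and gaps other than 9, chosen after seeing the data, gave 2.38% (gap of 6) or 0%. The second ERSE form, added after seeing the data, raised it to 28.6%. Leaving out a mouse and other normalizations could not be run without values per mouse, nor could the KDEL alternative without protein sequences. No paired analysis was possible because the values are means over all mice and the diets share no replicate numbers. The levels of Bhlha15, Chac1, Trib3 and Derl3, each under 5 CPM, rest on the fewest reads.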

Other observations

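Outside the ER set, the promoter windows of 27 genes held an ERSE, and 6 of these genes were listed. Alg12, a mannosyltransferase that builds the glycan precursor of ER glycoproteins, was at 7.40 CPM per kilobase, and its element is the same site as that of Creld2 (chr15:88819520-88819538 on GRCm38.p6). It lies in the promoter windows of both genes. Acnat2, an acyltransferase gene, was at 16.8 CPM per kilobase, Hnrnpa3 at 6.46, Xlr3a at 4.02, Spats2l at 0.320 and Adcy3 at 0.273. The element of Calr also lay in the window of 1700122E12Rik, which was not listed. Calr4, a relative of Calr, held an ERSE and was not listed either.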
